A study of Mus musculus with 12 samples.

Results

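Fatty acid activation and beta-oxidation is covered here by 32 genes: the acyl-CoA synthetases that activate fatty acids, the carnitine shuttle, the enzymes of the mitochondrial and peroxisomal oxidation cycles, and the electron transfer flavoprotein that takes up the electrons. They were chosen by name from what these enzymes are known to do, and each was found on the array through the RefSeq transcript that the scanner files give for its probes. All 32 had a probe, 38 of the 55681 probes on the array belonged to them, and all 38 probes passed the filter on dim signals, so that 32 of the 20862 genes tested are described below. Messenger RNA was measured on 12 one-colour Agilent arrays of peritoneal macrophages, the resident phagocytes of the abdominal cavity, taken from wild-type (WT) C57BL/6 mice 8 weeks of age. The design text of the series names blood leukocytes instead, and the labels of the samples were followed. Cells that did not adhere were washed away, and the rest were kept without serum before treatment.

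Each of 3 groups had 4 arrays. In the first group macrophages received interleukin 4 (IL4) at 10 ng/ml together with emodin, a plant anthraquinone, at 50 µM. The second group received IL4 at 10 ng/ml alone. The control group received vehicle. In every group replicates 1 and 2 came from female mice and replicates 3 and 4 from male mice. Per the descriptions cells were treated for 6 h, but the protocol text calls the treatment overnight. The labels do not say whether a replicate is 1 mouse or a pool, so the p-values cover only the variation among these arrays, which may be technical. No group received emodin without IL4, so emodin is compared only on top of IL4.

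A fatty acid is first joined to coenzyme A by an acyl-CoA synthetase. Long chains then enter mitochondria as carnitine esters, and each turn of the spiral removes an acetyl unit through a dehydrogenase, a hydratase, a second dehydrogenase and a thiolase. Peroxisomes run a parallel cycle on very long, branched and dicarboxylic chains. In mouse macrophages, alternative activation by IL4 through STAT6 has been linked with greater fatty acid oxidation, PPARγ and the coactivator PGC-1β.

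Levels below are log2 intensities minus the 75th percentile of the same array, and differences are between group means of such levels, with their standard errors from limma over all 12 arrays. A gene is said to have risen or fallen where its Benjamini-Hochberg adjusted p over all 20862 genes was below 0.05. Levels of different genes come from different probes and are not set against each other. The scale matters for the emodin arrays. Their 75th percentile lay at an intensity of 447 to 516, against 761 to 813 on the IL4 arrays and 633 to 810 on the control arrays. The exact permutation test gave p = 0.0286 for emodin against either group, the smallest p that 4 against 4 arrays allow. The 7 spike-in control probes went the other way, with mean log2 intensities of 11.10 to 11.30 on the emodin arrays, 10.45 to 10.99 on the IL4 arrays and 10.53 to 10.98 on the control arrays. All emodin arrays lay on a second slide, so that slide and emodin cannot be told apart. The IL4 and control arrays shared a slide in separate rows, and slide row and IL4 cannot be told apart either. In every group the replicate number was also the slide column, so a shared number and a shared column cannot be told apart. In these bulk samples fewer cells of a type and less RNA per cell cannot be told apart.

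With emodin on top of IL4, transcripts for several steps of fatty acid oxidation were lower than with IL4 alone. Others were higher relative to the array's 75th percentile. Among members measured on all arrays the largest fall was 7.20-fold, for the thiolase Acat1. On the log2 scale that is −2.85, and under normexp it was −2.45. Against IL4 alone, 14 of the 32 members fell, which is 43.8%, where 26.5% of all genes tested fell. Another 5 members rose, 15.6%, where 39.4% of all genes rose; with spike-in scaling none of the 32 rose, but only 3.46% of all genes did. Against the control, 13 members fell under IL4 plus emodin, 40.6% against 25.6% of all genes, and 7 rose, 21.9% against 37.3% of all genes, again none with spike-in scaling, where 4.12% of all genes rose. IL4 alone moved few of them relative to the control: 2 rose, 6.25% where 8.98% of all genes rose, and 2 fell, 6.25% where 8.56% of all genes fell. This fit did not pair the arrays. With the replicate number as a block, 4 members rose and 3 fell, where 12.7% of all genes rose and 12.7% fell. The median difference of the members was −0.14 for IL4 plus emodin against IL4, beside 0.17 over all genes. It was −0.13 for IL4 plus emodin against the control, beside 0.15 over all genes. For IL4 against the control it was −0.01, beside −0.03 over all genes. Both emodin comparisons use the same emodin arrays, and both comparisons with the control share the control arrays, so their counts are not independent. Counts of the role groups below are to be read against these shares of all genes.

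**Figure D1:**
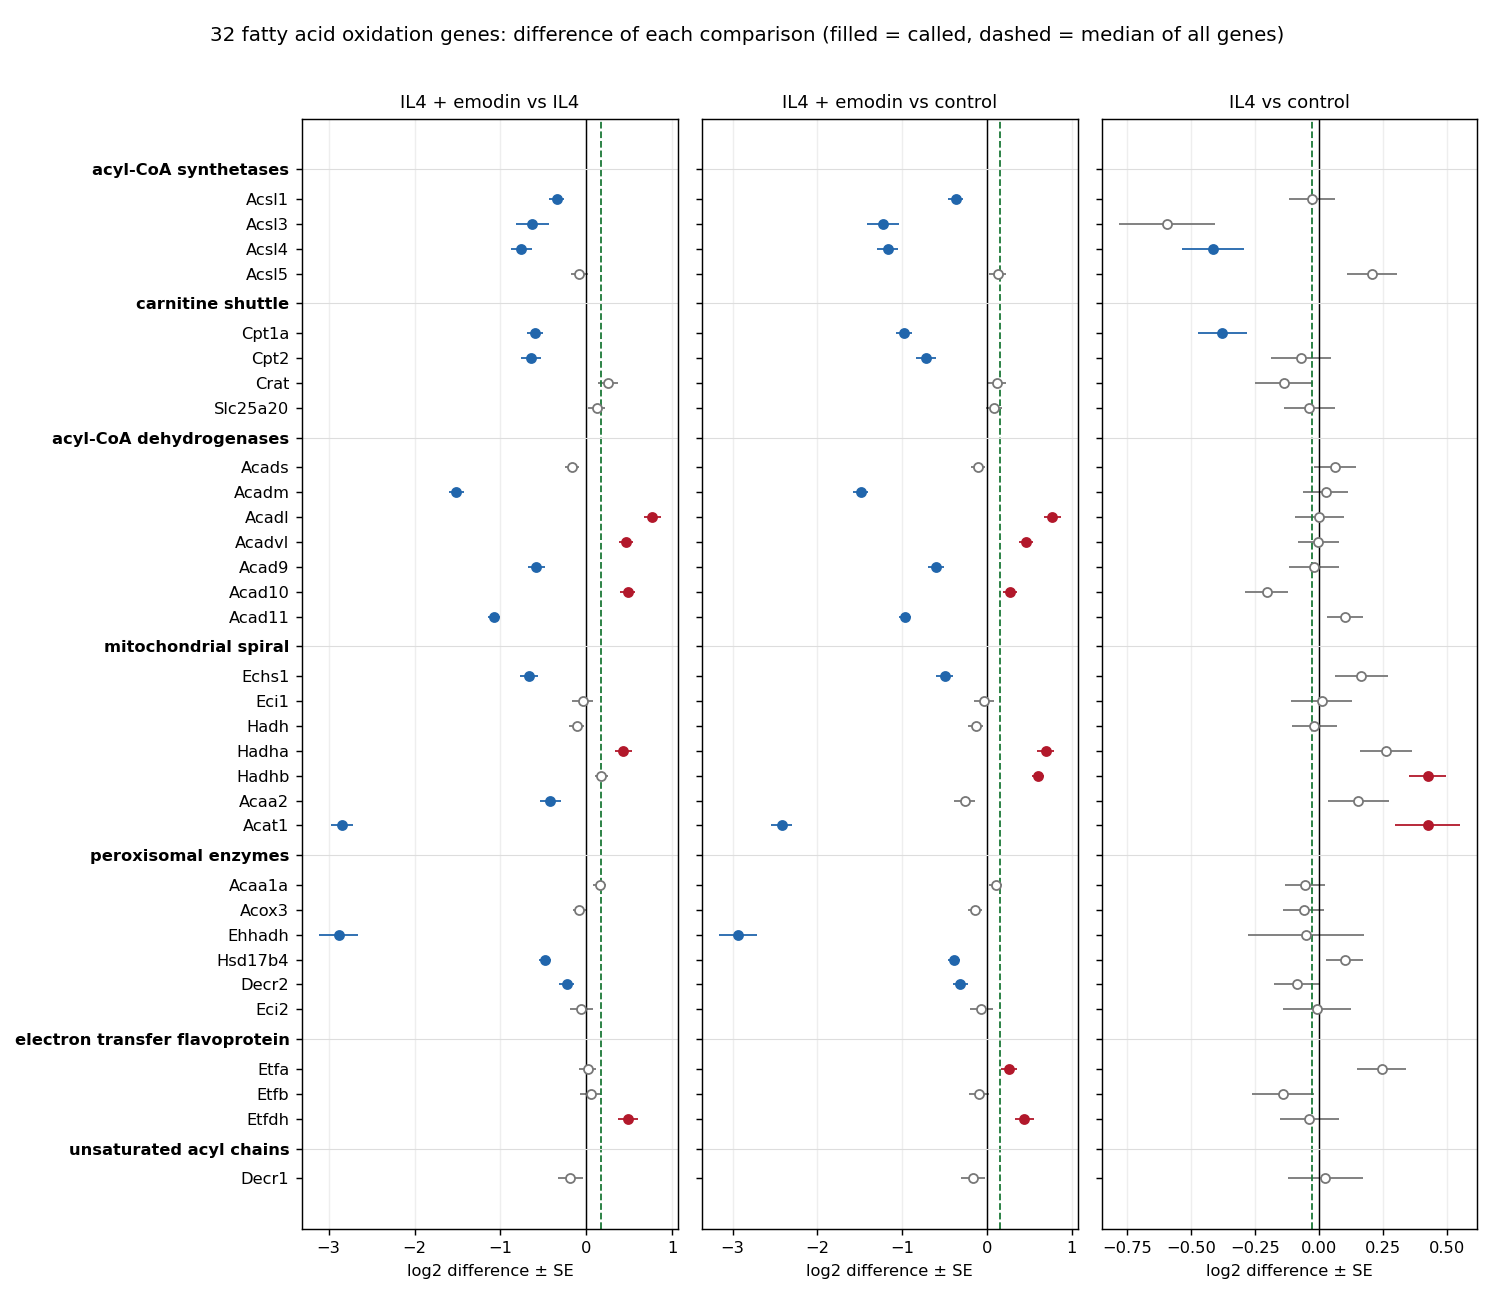
Log2 difference with its standard error (horizontal axis) of each of the 32 genes, grouped by role down the page, in 3 panels: IL4 plus emodin against IL4, IL4 plus emodin against control, and IL4 against control (4 arrays a group). Filled points passed the adjusted p of 0.05 and the dashed line is the median of all genes tested; in the first panel 14 genes lie lower and 5 higher, Ehhadh and Acat1 lie farthest left near −2.88 and −2.85, and with spike-in scaling no member lies higher in either emodin panel, where 3.46% and 4.12% of all genes do.

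Of the scalings, only spike-in scaling turned the direction of the rises, and none turned the largest falls. Normexp and quantile scaling both kept 5 members higher against IL4. Relative to the median of all genes the same 5 stayed higher with spike-in scaling, by construction as in the main fit. The values were 0.61 for Acadl, 0.32 for Etfdh and Acad10, 0.30 for Acadvl and 0.27 for Hadha. When each array was scaled to its 7 spike-in probes, the median of all genes moved to −0.92 for IL4 plus emodin against IL4 and to −0.81 against the control, and 31 and 30 of the 32 members fell, where 80.7% and 75.6% of all genes fell. Counts with spike-in scaling below are to be read against those shares. Under quantile scaling 17 members fell and 5 rose against IL4, while the split over all genes turned to 6134 higher and 6451 lower, beside a main split of 8212 higher and 5538 lower. Against the control quantile scaling gave 18 members lower and 5 higher, and the split over all genes was 5587 higher and 6300 lower, beside a main split of 7780 higher and 5345 lower. Spike-in scaling shifts all genes of a comparison by the same amount, so by construction it leaves the members' median relative to all genes as it was, at −0.30 against IL4 and −0.29 against the control; quantile scaling gave −0.24 and −0.30. Differences below are relative to the 75th percentile unless spike-in scaling is named.

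**Figure D2:**
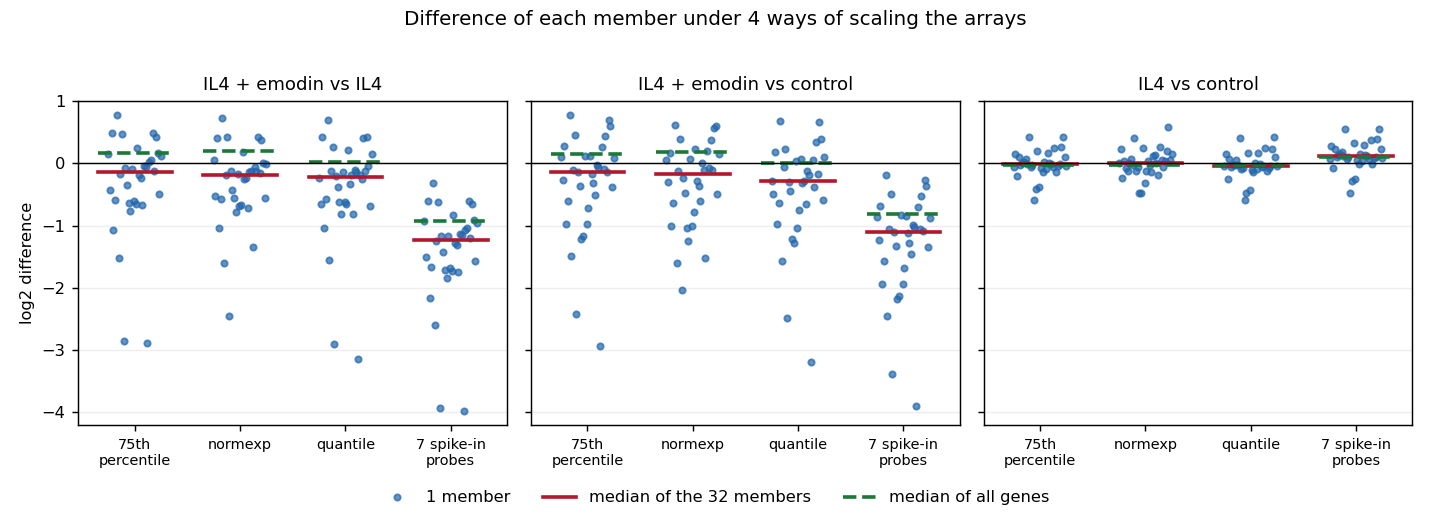
Log2 difference (vertical axis) of each of the 32 members, as points, in 3 panels of comparisons under 4 settings: the 75th percentile, normexp, quantile scaling and the 7 spike-in probes. The solid line is the median of the members and the dashed line that of all genes; in IL4 plus emodin against IL4 they lie at −0.14 and 0.17 with the 75th percentile and at −1.22 and −0.92 with the spike-in probes, where no member lies above 0.

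Activation was represented by 4 long-chain acyl-CoA synthetases: Acsl1, Acsl3, Acsl4 and Acsl5. With emodin on top of IL4, 3 of the 4 fell against either group, and none rose. Acsl3, a synthetase of the endoplasmic reticulum and lipid droplets, had levels of −0.36, −0.06, −0.06 and −0.25 on the IL4 plus emodin arrays. On the IL4 arrays they were 0.36, 0.59, 0.73 and 0.10, and on the control arrays 0.97, 1.21, 1.46 and 0.53. All emodin arrays lay below every IL4 and control array, while the IL4 and control groups overlapped. Acsl3 fell by 0.63 ± 0.19 against IL4 (adjusted p = 0.0115) and by 1.22 ± 0.19 against the control (adjusted p = 0.00014). Acsl4, which prefers arachidonic acid and related polyunsaturated chains, had levels of 3.27, 3.46, 3.47 and 3.42 with IL4 plus emodin, 4.23, 4.17, 4.30 and 3.96 with IL4, and 4.66, 4.53, 4.86 and 4.27 in the control. The emodin arrays again lay below all others, and control replicate 4 lay within the IL4 range. Acsl4 fell by 0.76 ± 0.12 against IL4 (adjusted p = 0.000166) and by 1.17 ± 0.12 against the control (adjusted p = 5.41e-06).

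With IL4 alone Acsl4 fell by 0.41 ± 0.12 against the control (adjusted p = 0.0352). That call was lost without IL4 replicate 1, 2 or 4 or control replicate 1, 2 or 3, with adjusted p-values of 0.0593 to 0.102, and with spike-in scaling, at −0.29 and an adjusted p of 0.147. Acsl3 was −0.59 ± 0.19 against the control with an adjusted p of 0.05, just outside the threshold, and passed it once replicate numbers were blocked (adjusted p = 0.00375), with quantile scaling (0.0456), with normexp (0.0457), without IL4 replicate 3 (0.042) and without control replicate 4 (0.00927). Acsl5, which is found in mitochondria and the endoplasmic reticulum, passed in no comparison, with 0.21 for IL4 against control, −0.08 for IL4 plus emodin against IL4 and 0.13 against the control. Acsl1, the main synthetase of triglyceride-rich tissues, fell by 0.34 ± 0.09 against IL4 (adjusted p = 0.00463) and by 0.37 against the control on the probe used. Its other probe gave the opposite direction, as described below.

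The carnitine shuttle had 4 members, of which 2 fell with IL4 plus emodin against either group and none rose. Cpt1a makes the carnitine ester at the outer mitochondrial membrane and is the main point of control of the pathway. Its levels were 2.77, 2.66, 2.68 and 2.92 on the IL4 plus emodin arrays, 3.38, 3.25, 3.30 and 3.51 on the IL4 arrays and 3.84, 3.54, 3.69 and 3.87 on the control arrays. The 3 groups did not overlap: the control arrays were highest and the emodin arrays lowest. Cpt1a fell by 0.60 ± 0.10 against IL4 (adjusted p = 0.000179) and by 0.98 against the control (adjusted p = 3.8e-06). The second Cpt1a probe, described below, was higher against IL4 relative to the array, though lower with spike-in scaling, and over both probes the call against IL4 was lost, at −0.04 with an adjusted p of 0.737, while the value against the control was −0.42 (adjusted p = 0.00364). With IL4 alone it fell by 0.38 ± 0.10 against the control (adjusted p = 0.0184), a call lost without IL4 replicate 2 or 3 or control replicate 4 (adjusted p = 0.0534 to 0.059) and with spike-in scaling (−0.25, adjusted p = 0.392). Cpt2, which turns the ester back into acyl-CoA inside the inner membrane, fell by 0.64 ± 0.12 with emodin against IL4 (adjusted p = 0.000466) and by 0.71 against the control. The translocase Slc25a20 and the carnitine acetyltransferase Crat did not pass, at 0.12 and 0.25 against IL4 and at 0.08 and 0.12 against the control. Crat passed as higher without IL4 replicate 3, at 0.38 with an adjusted p of 0.00223, whereas with spike-in scaling it was −0.83.

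The acyl-CoA dehydrogenases, which carry out the first step of each turn, split by member. With IL4 plus emodin 3 of the 7 fell, 3 rose and 1 did not pass, against IL4 and against the control alike, while with spike-in scaling none of the 7 rose and 6 fell in each comparison. None passed for IL4 against the control, where the 7 differences ran from −0.20 to 0.10. Acadm acts on medium-length chains. Its levels were 2.79, 2.77, 3.07 and 2.81 with IL4 plus emodin, against 4.30, 4.43, 4.40 and 4.37 with IL4 and 4.22, 4.45, 4.44 and 4.28 in the control. Every emodin array lay more than 1 log2 unit below every other array, and the IL4 and control arrays overlapped throughout. Acadm was 2.86-fold lower than with IL4 alone (−1.51 ± 0.09, adjusted p = 4.63e-08) and −1.49 ± 0.09 on the log2 scale against the control (adjusted p = 5.34e-08).

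Acad11, a dehydrogenase known for long chains and 4-hydroxy acids, had levels of 1.33, 1.43, 1.52 and 1.32 with IL4 plus emodin, 2.50, 2.45, 2.45 and 2.48 with IL4 and 2.46, 2.25, 2.41 and 2.35 in the control. The emodin arrays lay below both other groups. Acad11 was 2.10-fold lower against IL4 (−1.07 ± 0.07, adjusted p = 1.42e-07) and fell by 0.97 against the control (adjusted p = 3.42e-07). Acad9, which also helps to assemble respiratory complex I, fell by 0.58 ± 0.10 against IL4 (adjusted p = 0.000236) and by 0.60 against the control. Acads, the short-chain enzyme, did not pass, at −0.17 and −0.10.

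Acadl, Acadvl and Acad10 were higher with IL4 plus emodin relative to the array, but not with spike-in scaling. Acadl, for long chains, had levels of 3.89, 4.22, 4.13 and 4.16 with IL4 plus emodin, against 3.19, 3.30, 3.37 and 3.45 with IL4 and 3.13, 3.37, 3.36 and 3.44 in the control. The emodin arrays were all above the others. Acadl was higher by 0.77 ± 0.10 against IL4 (adjusted p = 2.59e-05), but −0.31 with spike-in scaling (adjusted p = 0.0637), and higher by 0.77 against the control, where spike-in scaling gave −0.19. Acadvl, the very-long-chain enzyme of the inner membrane, was higher by 0.47 ± 0.08 against IL4 (adjusted p = 0.000295) and by 0.46 against the control, but lower with spike-in scaling, at −0.62 and −0.49. Acad10 was higher by 0.48 ± 0.08 against IL4 (adjusted p = 0.000319) and by 0.28 against the control (adjusted p = 0.0123), but lower with spike-in scaling, at −0.60 and −0.68. The call of Acad10 against the control was also lost with quantile scaling (0.18, adjusted p = 0.0562), normexp (0.17, adjusted p = 0.0675) and the deposited table (0.17, adjusted p = 0.0579). With IL4 alone Acad10 did not pass, at −0.20, but passed as lower under quantile scaling (−0.24, adjusted p = 0.0378), normexp (adjusted p = 0.0426) and the deposited table (adjusted p = 0.0373). Acadl and Acadm, a pair chosen after their values were seen, differed by 2.29 log2 units, or 4.88-fold, in their change against IL4. Scaling by one value per array cannot alter that gap; it was 2.25 with quantile scaling and 2.33 with normexp.

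**Figure D3:**
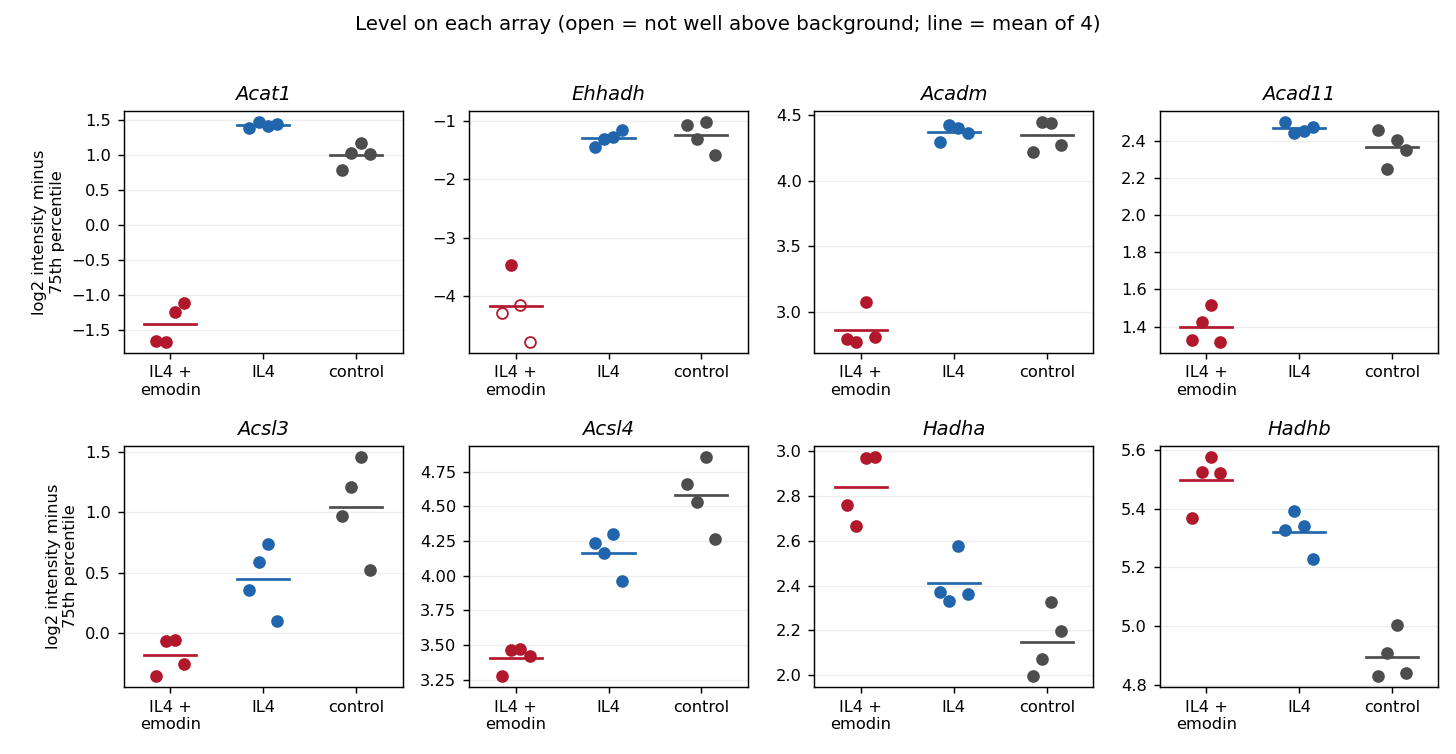
Level (log2 intensity minus the array's 75th percentile, vertical axis) of 8 members on each of the 12 arrays, with IL4 plus emodin, IL4 and control from left to right and a line at the mean of 4. The emodin arrays lie below all others for Acat1, Ehhadh, Acadm, Acad11, Acsl3 and Acsl4; 3 of the 4 Ehhadh points are open, since those arrays were not well above background. Hadha and Hadhb lie higher on the emodin than on the control arrays, a direction that turns with spike-in scaling, to −0.27 (not past the test) and −0.36.

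The later steps of the mitochondrial spiral were represented by Echs1, Eci1, Hadh, Hadha, Hadhb, Acaa2 and Acat1. With IL4 plus emodin against IL4, 3 of these 7 fell and 1 rose, and with spike-in scaling all 7 fell. Acat1, the acetoacetyl-CoA thiolase that also serves ketone body and isoleucine breakdown, changed most among the 31 members measured on every array. Its levels were −1.65, −1.67, −1.23 and −1.12 with IL4 plus emodin, against 1.38, 1.47, 1.42 and 1.44 with IL4 and 0.79, 1.03, 1.18 and 1.02 in the control. The 3 groups did not overlap, with IL4 highest and IL4 plus emodin lowest. Acat1 was 7.20-fold lower with emodin than with IL4 alone (−2.85 ± 0.13, adjusted p = 7.21e-09) and 5.36-fold lower than the control (−2.42 ± 0.13, adjusted p = 2.38e-08). Under normexp these differences were −2.45 and −2.04. With IL4 alone Acat1 was higher by 0.43 ± 0.13 (adjusted p = 0.0396). That call held without control replicate 3 and was lost without any one of the 7 other arrays, with adjusted p-values of 0.0703 to 0.0912.

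Echs1, the short-chain hydratase, fell by 0.67 ± 0.10 against IL4 (adjusted p = 0.00015) and by 0.50 against the control. Acaa2, the mitochondrial 3-ketoacyl-CoA thiolase, fell by 0.42 ± 0.12 against IL4 (adjusted p = 0.0081) and was −0.26 against the control, which did not pass. That value passed as lower under quantile scaling (−0.49, adjusted p = 0.000559), the deposited table (−0.50, adjusted p = 0.000509) and normexp (−0.29, adjusted p = 0.0445). Hadh, the short- and medium-chain hydroxyacyl dehydrogenase, and Eci1, an isomerase for unsaturated chains, did not pass, at −0.11 and −0.04 against IL4 and −0.13 and −0.03 against the control.

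Hadha and Hadhb encode the α and β subunits of the trifunctional protein, which carries out the last 3 steps of the spiral on long chains. Hadhb had levels of 5.37, 5.53, 5.58 and 5.52 with IL4 plus emodin, 5.33, 5.39, 5.34 and 5.23 with IL4 and 4.83, 4.91, 5.01 and 4.84 in the control. The control arrays lay below all others, and the groups with IL4 overlapped. With IL4 alone Hadhb rose by 0.43 ± 0.07 (adjusted p = 0.00167), and this was the one IL4 call among the members that held without each of the 8 arrays in turn. Hadha had levels of 2.76, 2.67, 2.97 and 2.97 with IL4 plus emodin, 2.37, 2.33, 2.58 and 2.36 with IL4 and 2.00, 2.07, 2.33 and 2.20 in the control. The 3 groups stood in separate ranges, but the difference of 0.26 ± 0.10 between IL4 and control had an adjusted p of 0.105, or 0.0185 with the replicate number as a block. Against the control IL4 plus emodin had Hadha higher by 0.69 and Hadhb by 0.60 (adjusted p = 9.2e-05 and 2.15e-05), while with spike-in scaling these were −0.27, which did not pass, and −0.36, a fall. Against IL4, Hadha was higher by 0.43 ± 0.10 (adjusted p = 0.00266) and Hadhb by 0.18 (adjusted p = 0.0524, not past the threshold), but with spike-in scaling the values were −0.65 and −0.91.

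Hadha and Hadhb lie head to head on chromosome 5 and are transcribed away from each other. The interval between their start sites is shown because it serves as the upstream sequence of both subunit genes. It was chosen after their values were seen. It covers chr5:30154980-30155253 of GRCm38.p6 (RefSeq), printed on the plus strand, with the Hadha start at its left end and the Hadhb start at its right end, so that the promoter windows of both genes share 228 of its 274 bases. Capitals mark the letters GGGCGG, the GC box.
Hadha-Hadhb: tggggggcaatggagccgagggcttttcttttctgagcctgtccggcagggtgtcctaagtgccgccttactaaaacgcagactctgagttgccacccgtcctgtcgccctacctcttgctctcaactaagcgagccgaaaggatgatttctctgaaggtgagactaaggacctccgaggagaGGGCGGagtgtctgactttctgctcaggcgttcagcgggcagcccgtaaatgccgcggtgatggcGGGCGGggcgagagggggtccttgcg
It holds 2 GC boxes and no CCAAT box on either strand.

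Promoter windows from 250 bases before to 50 after the RefSeq start were on hand for 26 of the 32 genes, in 27 windows. Acad9, Acaa2, Decr1, Acat1, Hsd17b4 and Crat had none. Both strands were searched. No member window held the ERR element (TCAAGGTCA, in 0.423% of all 32851 windows), the PPAR direct repeat (AGGNCA 2 times, 1 base apart, in 0.381%) or the STAT6 palindrome (TTC and GAA with 4 bases between, in 6.95%). The core of the NRF1 site (GCGC, any base, then TGCGC) was in 3 of 27 member windows, 11.1%, and in 4.6% of all windows. The GC box was in 21 of 27 member windows, 77.8%, and in 35.7% of all windows. CCAAT was in 12 of 27, 44.4%, and in 37.4% of all windows. These last 2 motifs were added after the first 4 had been searched, and a match is a run of letters and not a site.

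The windows with the NRF1 core belong to Acad10, Etfb and Etfdh. Those of Acad10 and Etfdh are shown, chosen after the matches and values were seen, because both genes were higher with emodin than with IL4 relative to the array, though lower with spike-in scaling. Etfb did not rise: it was 0.05 against IL4 and −0.09 against the control, and passed as lower in both under quantile scaling. A link between the core and these differences was not tested. The Acad10 window is chr5:121660461-121660760 and the Etfdh window chr3:79628718-79629017, both GRCm38.p6 from RefSeq, read 5′ to 3′ on the minus strand, with the NRF1 core in capitals.
Acad10: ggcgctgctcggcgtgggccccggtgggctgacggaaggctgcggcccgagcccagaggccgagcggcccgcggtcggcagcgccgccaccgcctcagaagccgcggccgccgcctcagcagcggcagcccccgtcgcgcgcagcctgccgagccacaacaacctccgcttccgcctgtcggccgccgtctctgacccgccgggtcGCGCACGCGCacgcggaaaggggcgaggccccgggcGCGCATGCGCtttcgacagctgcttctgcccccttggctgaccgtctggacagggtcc
Etfdh: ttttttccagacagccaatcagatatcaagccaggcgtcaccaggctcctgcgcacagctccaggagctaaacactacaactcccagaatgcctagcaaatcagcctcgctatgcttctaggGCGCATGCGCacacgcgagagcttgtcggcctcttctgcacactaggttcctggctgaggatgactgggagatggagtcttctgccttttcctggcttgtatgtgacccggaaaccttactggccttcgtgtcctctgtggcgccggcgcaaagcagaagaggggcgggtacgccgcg
The Acad10 window holds the core 2 times, at and just before its start site, and the Etfdh window 1 time, farther upstream.

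The electron transfer flavoprotein carries electrons from the acyl-CoA dehydrogenases to the respiratory chain. Its dehydrogenase Etfdh, which hands them to ubiquinone, had levels of 3.95, 4.14, 4.30 and 3.97 with IL4 plus emodin, against 3.72, 3.32, 3.83 and 3.58 with IL4 and 3.54, 3.70, 3.68 and 3.67 in the control. The emodin arrays lay above all others. Etfdh was higher by 0.48 ± 0.12 against IL4 (adjusted p = 0.00295) and by 0.44 against the control, but lower with spike-in scaling, at −0.60 and −0.52. The subunit Etfa was 0.25 ± 0.10 higher with IL4 alone, with an adjusted p of 0.104, or 0.0446 with the replicate number as a block and 0.0221 with quantile scaling. With IL4 plus emodin Etfa was higher by 0.26 against the control (adjusted p = 0.0311), but −0.70 with spike-in scaling, and the call was lost without emodin replicate 2, 3 or 4 or control replicate 1 or 4. It was also lost with quantile scaling (0.06, adjusted p = 0.458), the deposited table (0.06, adjusted p = 0.484), normexp (0.20, adjusted p = 0.0654) and the compared groups alone (adjusted p = 0.0718). The other subunit, Etfb, passed in no comparison, at −0.14, 0.05 and −0.09 for IL4 against control, emodin against IL4 and emodin against control. Under quantile scaling Etfb passed as lower in both emodin comparisons, at −0.25 (adjusted p = 0.0229) and −0.37 (adjusted p = 0.00288).

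Among the 7 peroxisomal enzymes 4 fell with IL4 plus emodin against either group, and none rose. None passed with IL4 alone, where the 7 differences ran from −0.08 to 0.10. Ehhadh is the bifunctional hydratase and dehydrogenase of the peroxisomal cycle. Its levels were −4.30, −3.47, −4.15 and −4.79 with IL4 plus emodin, against −1.44, −1.31, −1.27 and −1.14 with IL4 and −1.06, −1.30, −1.02 and −1.58 in the control. The emodin arrays lay far below the rest, and only emodin replicate 2 was well above background, 1 of 4 arrays. Ehhadh fell by 2.88 ± 0.23 against IL4 (adjusted p = 5.44e-07) and by 2.94 ± 0.23 against the control (adjusted p = 4.91e-07). These sizes depend on how background was removed: with normexp they were −1.33 and −1.52.

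Hsd17b4, the second peroxisomal bifunctional enzyme, fell by 0.48 ± 0.07 against IL4 (adjusted p = 9.04e-05) and by 0.38 against the control. Decr2, the peroxisomal reductase for unsaturated chains, fell by 0.23 ± 0.09 against IL4 (adjusted p = 0.0419) and by 0.31 against the control. The first of these calls was lost without IL4 replicate 1, 2 or 3 or emodin replicate 1 or 2, with quantile scaling (adjusted p = 0.0734), with the deposited table, without the filter and with the compared groups alone. The fourth that fell was Acad11, given above. Acaa1a, the peroxisomal thiolase, Acox3, an oxidase for branched chains, and Eci2, an isomerase, did not pass on the probes used, at 0.16, −0.08 and −0.06 against IL4. Under quantile scaling Acaa1a passed as lower against IL4 and control (−0.24 and −0.28) and Acox3 against the control (−0.29, adjusted p = 0.0241). Of the 4 enzymes that handle double bonds, Decr1, Decr2, Eci1 and Eci2, only Decr2 passed on the probes used.

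For 6 members the array carried a second probe to the same transcript, and for 4 of them the probes differed in direction or call with emodin against IL4. The probe with the higher mean signal was used above. For Acsl1 the other probe had levels of 0.58, 1.03, 0.76 and 1.36 with IL4 plus emodin, against 0.03, 0.04, −0.07 and 0.16 with IL4 and 0.15, 0.09, 0.11 and 0.27 in the control. On that probe the emodin arrays lay above the rest, by 0.89 ± 0.14 against IL4 (adjusted p = 0.000145; with spike-in scaling −0.19, not past the test), where the probe used fell by 0.34. For Cpt1a the other probe was 0.52 ± 0.13 higher against IL4 (adjusted p = 0.00318), but −0.57 with spike-in scaling, and it did not pass against the control (0.14, adjusted p = 0.344). For IL4 against control it gave −0.38 with an adjusted p of 0.0621, close in size to the probe used.

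For Acox3 the other probe was 0.70 ± 0.11 higher with emodin against IL4 (adjusted p = 0.000112), but −0.39 with spike-in scaling, and with IL4 alone it fell by 0.49 ± 0.11 against the control (adjusted p = 0.0073), where the probe used gave −0.06. For Decr1, the mitochondrial reductase for unsaturated chains, the probe used gave −0.19 ± 0.15 with emodin against IL4, which did not pass but did under quantile scaling, at −0.32 (adjusted p = 0.0327). Its other probe read −2.72, −2.59, −2.60 and −2.94 with IL4 plus emodin, against −1.40, −1.35, −1.15 and −1.40 with IL4, and fell by 1.38 ± 0.11 (adjusted p = 4.83e-07). The emodin arrays did not overlap the others on that probe. Both probes of Cpt2 fell against IL4, at −0.64 and −0.60, and neither probe of Etfa passed there. Which probe of such a pair tracks the transcript was not tested.

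**Figure D4:**
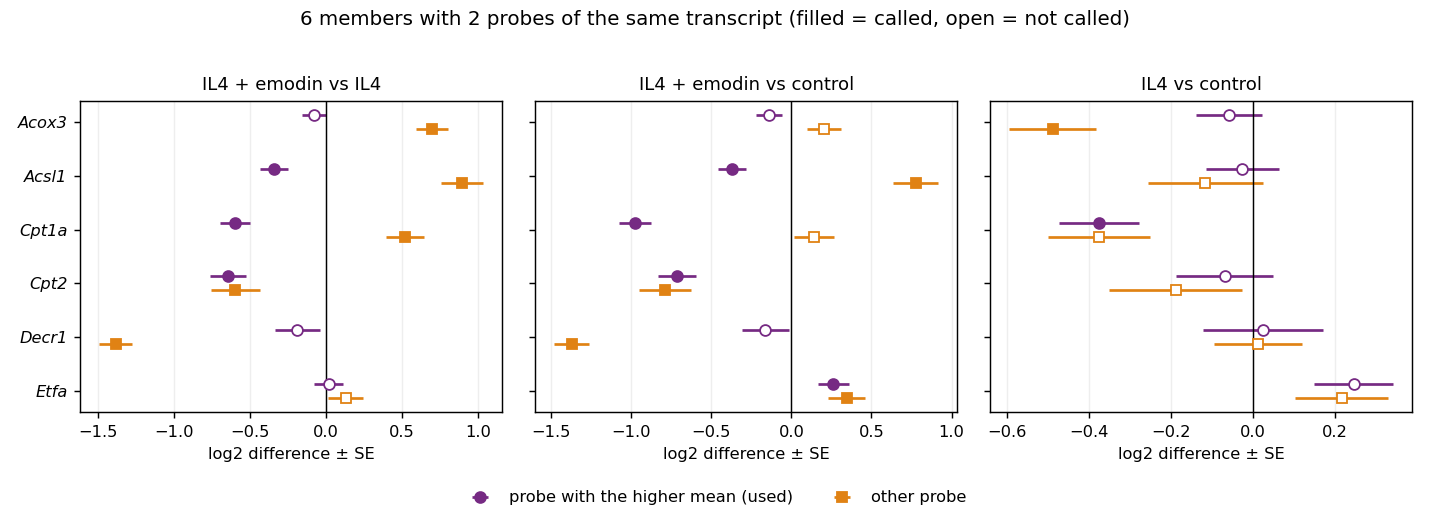
Log2 difference with its standard error of both probes of the 6 members that have 2, in the 3 comparisons, with a circle for the probe of higher mean signal (used above) and a square for the other. For Acox3, Acsl1 and Cpt1a the markers lie on opposite sides of 0 in IL4 plus emodin against IL4, while with spike-in scaling both probes of each are below 0; for Decr1 both lie below 0 and the square is farther out, at −1.38.

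The sexes were compared by adding the interaction of sex with group. No gene of the 20862 passed limma's test in any of the 3 comparisons, with 272, 507 and 434 genes at an unadjusted p below 0.05 for IL4 against control, emodin against IL4 and emodin against control. Of the members only Acat1, in emodin against IL4, had an unadjusted p below 0.05 (limma adjusted p = 1). Its difference was −2.61 in male and −3.09 in female mice, with 2 arrays of each sex in a group.

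Genes around the pathway were described by 7 further lists, of which 78 of 84 genes were tested. For IL4 against control 13 of the 78 rose and 4 fell, 16.7% and 5.13%, where 8.98% and 8.56% of all genes did. For emodin against IL4 23 rose and 33 fell, 29.5% and 42.3%, where 39.4% and 26.5% of all genes did. For emodin against control 24 rose and 28 fell, 30.8% and 35.9%, where 37.3% and 25.6% of all genes did. Counts of the lists and cell markers below are to be read against these shares of all genes. Of the 15 regulators 6 rose with IL4, which is 40%, and none fell, where 8.98% of all genes rose. Pparg, the lipid-sensing nuclear receptor, had levels of 6.81, 6.95, 6.79 and 6.76 with IL4, against 5.37, 5.65, 5.52 and 5.42 in the control, and rose by 1.34 ± 0.09 (adjusted p = 8.1e-07). Ppargc1b, which encodes PGC-1β, had levels of −0.44, −0.63, −0.48 and −0.37 with IL4, against −1.99, −2.53, −2.62 and −2.25 in the control, and rose by 1.87 ± 0.28 (adjusted p = 0.000566). In both genes all IL4 arrays lay above all control arrays. Prkaa2, a catalytic subunit of AMP-activated kinase, rose by 1.83 ± 0.21, with 2 of 4 control arrays well above background and 0.84 under normexp.

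With emodin on top of IL4, 8 of the 15 regulators fell and 5 rose, or 12 and 2 with spike-in scaling. The 8 and 5 are 53.3% and 33.3%, where 26.5% of all genes fell and 39.4% rose. Ppargc1b was not well above background on any emodin array, and was at least 11.6-fold lower than with IL4 and at least 3.19-fold lower than the control, with adjusted p-values of 7.96e-08 and 6.85e-06. These bounds set the mean of the group with signal against a limit averaged over the emodin arrays. On each array the limit was the lowest signal well above background, or the gene's own level where that was larger. Prkaa1, the other catalytic subunit of AMP-activated kinase, fell by 1.98 ± 0.08 against IL4. Its levels were 1.56, 1.17, 1.39 and 1.33 with IL4 plus emodin, against 3.35, 3.33, 3.29 and 3.39 with IL4. Rxra, the partner of the PPARs, was higher by 2.62 ± 0.11 on the probe used, or by 1.54 with spike-in scaling. Its other probe was −0.07 and did not pass, and spike-in scaling moves that value further down.

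Pparg above and the 4 regulators that follow were added after their values were seen. Ppargc1a, the related coactivator PGC-1α, had levels of 0.47, 0.72, 0.92 and 0.07 with IL4 plus emodin, against −1.24, −1.03, −1.08 and −1.56 with IL4, and rose by 1.77 ± 0.18 (adjusted p = 4.01e-06), or by 0.69 with spike-in scaling. Stat6, the transcription factor of IL4 signalling, fell by 1.00 ± 0.08 against IL4 and by 1.14 ± 0.08 against the control, and its 3 probes all fell. Esrra, the nuclear receptor ERRα that PGC-1 proteins act on, rose by 0.31 ± 0.09 with IL4 against control (adjusted p = 0.0299) and fell by 0.95 ± 0.09 with emodin against IL4 (adjusted p = 1.88e-06). Nrf1 fell by 1.04 ± 0.10 against IL4 on the probe used, with −0.67 and 0.77 on its other 2 probes, both past the threshold. Pparg was 0.39 higher with emodin than with IL4, but −0.06 with quantile scaling, which did not pass, and −0.69 with spike-in scaling, a fall.

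**Figure D5:**
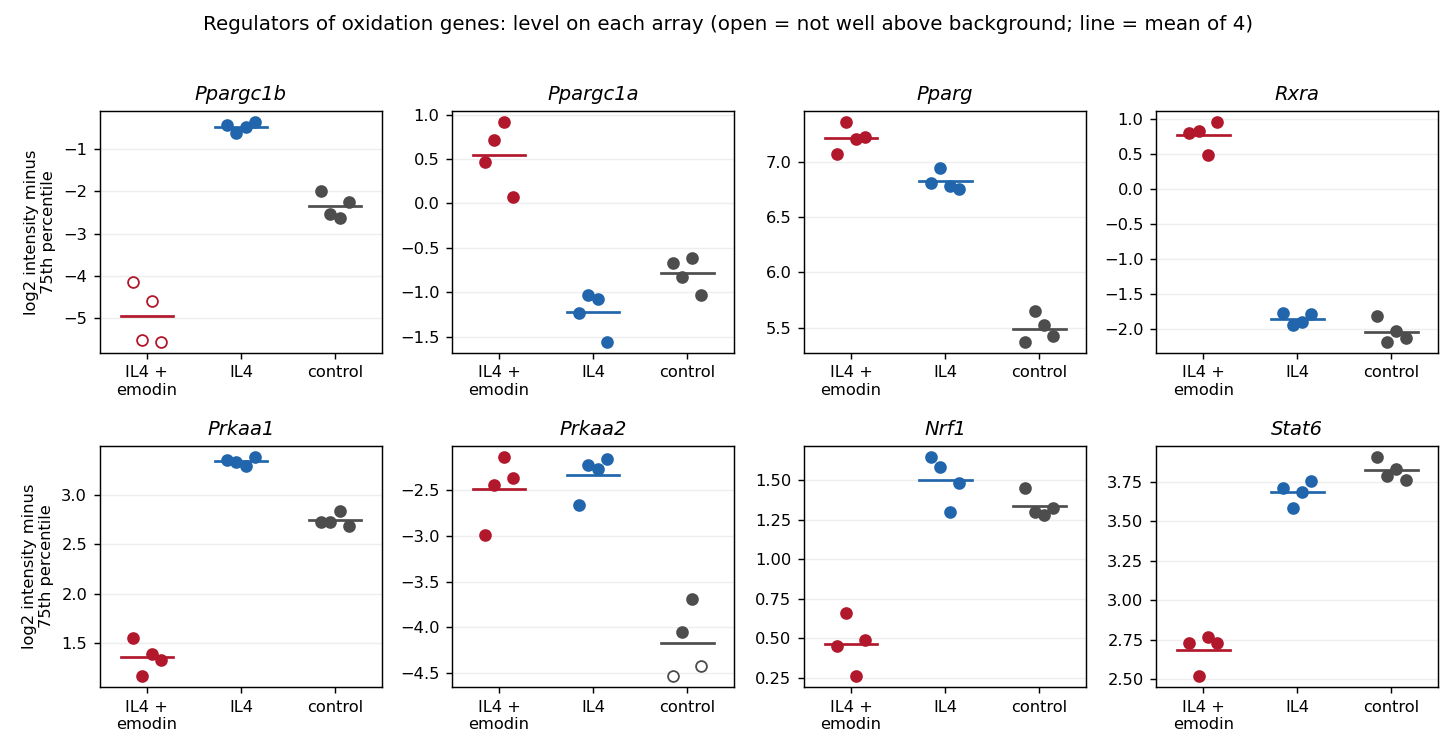
Level (log2 intensity minus the array's 75th percentile) of 8 regulators of oxidation genes on each of the 12 arrays, with IL4 plus emodin, IL4 and control from left to right and a line at the mean of 4. Ppargc1b lies higher with IL4 than in the control and is open, not well above background, on all 4 emodin arrays. Ppargc1a and the Rxra probe used lie higher with emodin than with IL4, also with spike-in scaling (0.69 and 1.54). The other Rxra probe, not drawn, was −0.07 and did not pass.

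Among the 13 other genes of activation and uptake, 2 rose and 2 fell with IL4, while 6 rose and 3 fell with emodin against IL4, or none and 10 with spike-in scaling. The 6 and 3 are 46.2% and 23.1%, near the 39.4% and 26.5% of all genes. Acss1, a mitochondrial acetyl-CoA synthetase, rose by 1.55 ± 0.12 with IL4 against control. Slc27a3, of the fatty acid transport protein family, rose by 1.24 ± 0.21 with IL4 and fell by 2.23 ± 0.21 with emodin against IL4. Fabp4, the fatty acid carrier of adipocytes and macrophages, was higher by 1.12 ± 0.11 with emodin against IL4, but 0.04 and not past the test with spike-in scaling. Of 8 genes of the shuttle and of malonyl-CoA control, 5 fell with emodin against IL4, 62.5% where 26.5% of all genes fell, and none rose. Under normexp 3 fell and 2 rose, with the replicate number as a block 5 fell and 1 rose, and with spike-in scaling 7 fell and none rose. With IL4 alone 1 of the 8 rose. That gene was Acacb, which makes malonyl-CoA at mitochondria. It was at least 2.28-fold higher with IL4 than in the control (adjusted p = 0.00274) and at least 1.68-fold lower with emodin than with IL4 (adjusted p = 0.000376), though not past the test there under normexp, at −0.17.

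Of 14 other peroxisomal genes 9 fell and 3 rose with emodin against IL4, or 13 and 1 with spike-in scaling, and 2 rose with IL4. Nudt7 and Nudt19, peroxisomal hydrolases of coenzyme A and its esters, fell by 2.33 ± 0.15 and 1.26 ± 0.14 against IL4, and both probes of Nudt7 fell. Abcd2, a peroxisomal importer of fatty acids, fell by 1.89 ± 0.21 with 2 of 4 emodin arrays well above background, and its size under normexp was −0.82. Acox2, an oxidase of branched chains and bile acid intermediates, was not well above background on any IL4 array and at least 5.31-fold higher with emodin (adjusted p = 0.000636), and it was also higher with spike-in scaling. In the 9 genes of ketone bodies and thioesterases 3 fell and 3 rose with emodin against IL4, or 8 and none with spike-in scaling. Each 3 is 33.3%, near the 26.5% of all genes that fell and the 39.4% that rose. Acat2, the cytosolic counterpart of Acat1, fell by 1.42 ± 0.15 and the ketone body dehydrogenase Bdh1 by 1.11 ± 0.22. The mitochondrial thioesterase Acot2 was higher by 1.11 ± 0.10, but 0.03 and not past the test with spike-in scaling.

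The 8 genes of branched-chain and odd-chain breakdown had 1 higher with IL4, and 3 lower and none higher with emodin against IL4. Among 11 PPAR-linked targets and genes of lipid supply, 2 fell with IL4, and 6 rose and 2 fell with emodin against IL4, or none and 7 with spike-in scaling. With emodin the 6 and 2 are 54.5% and 18.2%, where 39.4% of all genes rose and 26.5% fell. Angptl4, a lipoprotein lipase inhibitor, fell by 1.43 ± 0.12 with emodin against IL4. G0s2, an inhibitor of adipose triglyceride lipase, fell by 1.02 ± 0.18 with 3 of 4 emodin arrays well above background, and did not pass under normexp, at −0.20. Plin2, the lipid droplet coat protein, was higher by 1.01 ± 0.09 with emodin against the control, but 0.05 and not past the test with spike-in scaling.

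Markers of the cells that a peritoneal wash can hold were measured alongside. Of 8 macrophage markers 7 were tested, and their summed level, in multiples of the array's 75th percentile, was 663 to 787 with IL4 plus emodin, 713 to 807 with IL4 and 650 to 661 in the control. Here and below such a sum gives most weight to the markers with the brightest probes. For emodin against IL4, 2 of the 7 rose and 3 fell, or none and 7 with spike-in scaling, and the marker that changed most was Fcgr1, at −2.89. The 2 and 3 are 28.6% and 42.9%, where 39.4% of all genes rose and 26.5% fell. The sum over 5 markers of large peritoneal macrophages was 6.90 to 8.66 with IL4 plus emodin, 9.77 to 12.5 with IL4 and 9.93 to 11.2 in the control. Single markers did not all follow the sum. Relative to the array, 1 of the 5 rose and 2 fell with emodin against IL4. Against the control 1 rose and 1 fell, and 4 of the 5 differences were above 0, with a median of 0.72. The 3 tested B cell markers of 5 all fell with emodin, with sums of 0.279 to 0.473, against 1.11 to 2.12 with IL4 and 0.958 to 2.29 in the control, and Pax5 was not well above background on any array. The sum over 4 of 7 neutrophil markers was 36.3 to 58.6 with IL4 plus emodin, 18.9 to 29.9 with IL4 and 25.8 to 39.2 in the control, with Ngp never well above background. Relative to the array, 2 of the 4 rose and none fell with emodin against IL4, with differences from −0.29 to 1.26. Against the control 2 rose and 1 fell, with differences from −0.74 to 0.89.

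Over 2 of 6 T and NK cell markers the sum was 2.78 to 5.82 with IL4 plus emodin, 1.77 to 3.04 with IL4 and 4.15 to 4.68 in the control, and Cd3g, Cd3d and Ncr1 were never well above background. The eosinophil genes Prg2 and Epx were never well above background, and the third marker, Siglecf, lay at 0.731 to 0.806 with IL4 plus emodin, 0.523 to 0.808 with IL4 and 1.16 to 1.29 in the control. The adipocyte genes Plin1, Cidec, Lep and Cfd were never well above background, and Fasn, the fatty acid synthase, lay at 0.015 to 0.061 with IL4 plus emodin, 0.211 to 0.307 with IL4 and 0.254 to 0.441 in the control. Sums over 8 mesothelial and fibroblast markers ran from 20.7 to 96.5 with IL4 plus emodin, 16.5 to 81.8 with IL4 and 14.8 to 68.4 in the control. Sums over 4 of 5 mast cell markers were 0.711 to 1.72 with IL4 plus emodin, 0.486 to 1.57 with IL4 and 0.461 to 1.43 in the control. Over 2 of 4 dendritic cell markers they were 0.189 to 0.276 with IL4 plus emodin, 0.253 to 0.355 with IL4 and 0.13 to 0.232 in the control. The part of any of these cells in the members' differences was not tested.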

How the data were processed

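Per the file headers, the authors read each array with Agilent Feature Extraction 10.7.3.1, whose processed signal is an intensity with background subtracted and no scaling between arrays. The deposited value table, in log2 units, was not described in the sources used here. Against the scanner values it was quantile-normalized and centred on each probe's median (r = 1 on each array), and it served as an alternative.

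Log2 processed signals were taken relative to the 75th percentile of each array. Control spots were left out, as were spots flagged as outliers (0.231% of spots). A probe was kept when well above background on all 4 arrays of 1 group or more: 27705 of 55681 passed. Symbols came from RefSeq through the transcript named for the probe, which gave a single symbol to 27509 probes and none to 28172. A gene took its probe with the highest mean. limma 3.58.1 (R 4.3.3, with the data.table package in version 1.17.8) fitted 3 group means with 9 residual degrees of freedom and moderated variances, over 20862 genes, 13197 of them with a symbol. The fit was tested on simulated arrays with independent noise and planted changes in the IL4 group. They held no pairing and no slide shift, so the fit was not tested for these. Figures and promoter searches used Python 3.11.15, pandas 2.3.3 and matplotlib 3.10.9.

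Precision is limited by 4 arrays a group. Arrays of 1 group correlated at 0.991 to 0.997 and arrays of different groups at 0.957 to 0.989, and 47.2% to 53.1% of probes were well above background on each array. Deviations of IL4 and control arrays with the same replicate number, taken from the titles, correlated at 0.31 to 0.52. For different numbers the correlations were −0.30 to 0.16, and the number was taken to pair the arrays. Arrays of the same number also shared a slide column, so the correlation may come from the column, and the block takes out either. The main fit did not use this pairing, which entered only the alternative with the replicate number as a block. For the emodin comparisons not every pair passed 0.1, though against IL4 each pair exceeded all pairs of different numbers (at most 0.0868). Alternatives were quantile scaling, spike-in scaling, normexp (offset 50, on the median spot signal, since no mean was at hand), the deposited table, no filter, the mean over probes, the compared groups alone, the replicate number as a block, and each array left out in turn.

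The genes, the lists around them and the tests were chosen with earlier results of these data known. Per-array values are given for members past the test with a difference of 0.5 or more with IL4 (none) or 1 or more with emodin, and for others chosen after their values were seen (Hadha, Hadhb, Cpt1a, Acadl, Etfdh and second probes). Genes of the lists around the pathway are named when past the test with a difference of 1 or more, at most 4 a list.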

Additional observations from a re-analysis of the deposited data

Results flagged for a closer look

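Of 96 sets of 4 arrays, 1 for each member and group, 3 held an array far from the other 3. Chance flags about 1 in 20 groups. Acadm was highest on emodin replicate 3, at 3.07, against 2.77 to 2.81 on the other emodin arrays. Hadha was highest on IL4 replicate 3, at 2.58, against 2.33 to 2.37 on the other IL4 arrays. Acsl5 was lowest on emodin replicate 1, at 3.28, against 3.60 to 3.66 on the other emodin arrays.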

How the results depend on the processing

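Spike-in scaling turned the sign of 11 members in each emodin comparison. Against IL4 it gave −0.93 for Acaa1a, −0.60 for Acad10, −0.31 for Acadl, −0.62 for Acadvl, −0.83 for Crat, −1.07 for Etfa, −1.04 for Etfb, −0.60 for Etfdh, −0.65 for Hadha, −0.91 for Hadhb and −0.96 for Slc25a20. Against the control it gave −0.86 for Acaa1a, −0.68 for Acad10, −0.19 for Acadl, −0.49 for Acadvl, −0.83 for Acsl5, −0.84 for Crat, −0.70 for Etfa, −0.52 for Etfdh, −0.27 for Hadha, −0.36 for Hadhb and −0.87 for Slc25a20. Of these, Acadl in both and Hadha against the control did not pass the test. Quantile scaling turned Acaa1a (−0.24), Etfa (−0.19) and Etfb (−0.25) against IL4 and Acaa1a (−0.28) against the control, and the deposited table gave −0.24, −0.19, −0.26 and −0.28 for the same. The mean over probes ended the call of Cpt1a against IL4 (−0.04) and turned Acox3 (0.31) and Acsl1 (0.27) against IL4, and Acsl1 against the control (0.20, not past the test).

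Members called higher with emodin against IL4 numbered 0 with spike-in scaling, where 3.46% of all genes were higher, 8 with the replicate number as a block (Hadhb, Crat and Acaa1a added, adjusted p = 0.0285, 0.0469 and 0.0418), and 5 to 9 with 1 array left out, the 9 without emodin replicate 1; members lower numbered 31 with spike-in scaling, where 80.7% of all genes were lower, and 13 to 15 with 1 array left out. Against the control, 0 were higher and 30 lower with spike-in scaling, where 4.12% of all genes were higher and 75.6% lower, and 6 to 8 higher and 13 to 14 lower with 1 array left out. For IL4 against control, the block gave 4 higher and 3 lower, and 1 array left out gave 1 to 2 higher. Members lower there numbered 4 with quantile scaling, with normexp, with the deposited table and with the mean over probes, 1 with the compared groups alone, 0 with spike-in scaling, and 0 to 2 with 1 array left out, the 0 without IL4 replicate 2. The members' median minus that of all genes was −0.63 and −0.52 without the filter for emodin against IL4 and against control, where more dim genes were tested, and −0.35 to −0.28 and −0.31 to −0.25 with 1 array left out. For IL4 against control it was −0.0124 with quantile scaling, −0.0120 with the deposited table, 0.12 without the filter and −0.0040 to 0.0342 with 1 array left out. The causes were not tested. Emodin arrays correlated with same-number arrays at 0.0934 to 0.437 for IL4 and at 0.0559 to 0.515 for the control. With arrays of different numbers the correlations were −0.34 to 0.0868 and −0.30 to 0.22, so the ranges overlapped only for the control. The block added Acads (adjusted p = 0.0317) against IL4 and Acaa2 (adjusted p = 0.0193) against the control to the members called lower. Signal over background limits Ehhadh, which 1 of 4 emodin arrays measured.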
